A study of Mus musculus with 9 samples.

Results

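A set of 10 genes of sebaceous gland lipid metabolism was followed through 9 mouse ear RNA libraries. They are Scd1, Scd3, Elovl3, Far2, Awat1, Awat2, Dgat2, Soat1, Mgst1 and Mc5r, taken by symbol from the count table, and each matched 1 of its 55401 features. All 10 members passed the filter on low counts, which left 21925 genes for testing. Levels are given as CPM, the deposited estimated counts scaled to 1000000 per library after its total was adjusted by the TMM factor of edgeR. Library totals ran from 54264605 to 57745225, and TMM factors from 0.942 to 1.09. The libraries were made from ears of C57 mice, 3 per group. One group received MC903 with paeonol at 200 mg/kg, the next MC903, and the control group absolute ethyl alcohol. MC903 is calcipotriol, a vitamin D analogue that is applied to mouse skin to model atopic dermatitis, and paeonol is a phenolic compound of peony root bark. No group received paeonol alone, no vehicle of paeonol is named for the MC903 group, and the labels give neither age nor sex. They do not say whether libraries came from separate animals, so each p-value reflects sample-to-sample spread alone, and that spread may be technical.

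Sebaceous glands open into the hair canal and release sebum, made by sebocytes that fill with lipid and burst. Mouse sebum is rich in wax esters, triglycerides and sterol esters. Their building blocks are fatty acids that desaturases and elongases modify, reductases turn into fatty alcohols, and acyltransferases join into esters. In mice, loss of Scd1 shrinks the glands, and loss of Mc5r lowers the lipid on the fur.

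The main pattern split the members. In MC903 ears 8 of the 10 members fell relative to control ears and none rose, while the wax synthase genes Awat1 and Awat2 were not called. With paeonol added, 7 of those 8 were higher than in MC903 alone, Scd3 being the one that was not called. Against control ears, Scd1, Scd3 and Mgst1 remained lower with MC903 and paeonol. Of the members not called there, Dgat2 averaged 108.0% and Elovl3 100.5% of the control mean, the latter with a wide interval (log2 change -0.95 to 0.96). Far2 averaged 65.89% and Mc5r 65.35%, and their paeonol libraries lay below all control libraries. The calls are from edgeR's quasi-likelihood test with Benjamini-Hochberg adjustment over all 21925 genes at a threshold of 0.05. Of all genes tested, 23.8% were called lower and 23% higher in MC903 than in control. With paeonol, 15.3% were called higher and 14.3% lower than in MC903, and 14.5% lower and 16.3% higher than in control. The libraries of the 2 groups did not overlap for 8 members lower in MC903 than in control (29.8% of all genes), 7 higher with paeonol than in MC903 (21.9%) and 5 lower with paeonol than in control (23.6%). The median log2 change of the members was -1.55 in MC903 over control, 0.86 in MC903 with paeonol over MC903 and -0.38 in MC903 with paeonol over control. The corresponding medians of all genes were -0.02, 0.0024 and -0.03. The members were chosen with results of these data known, so these counts describe them and do not show that they differ from other genes. In ear RNA, fewer sebocytes and less RNA per sebocyte cannot be told apart, and the part of other cells was not tested.

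**Figure D1:**
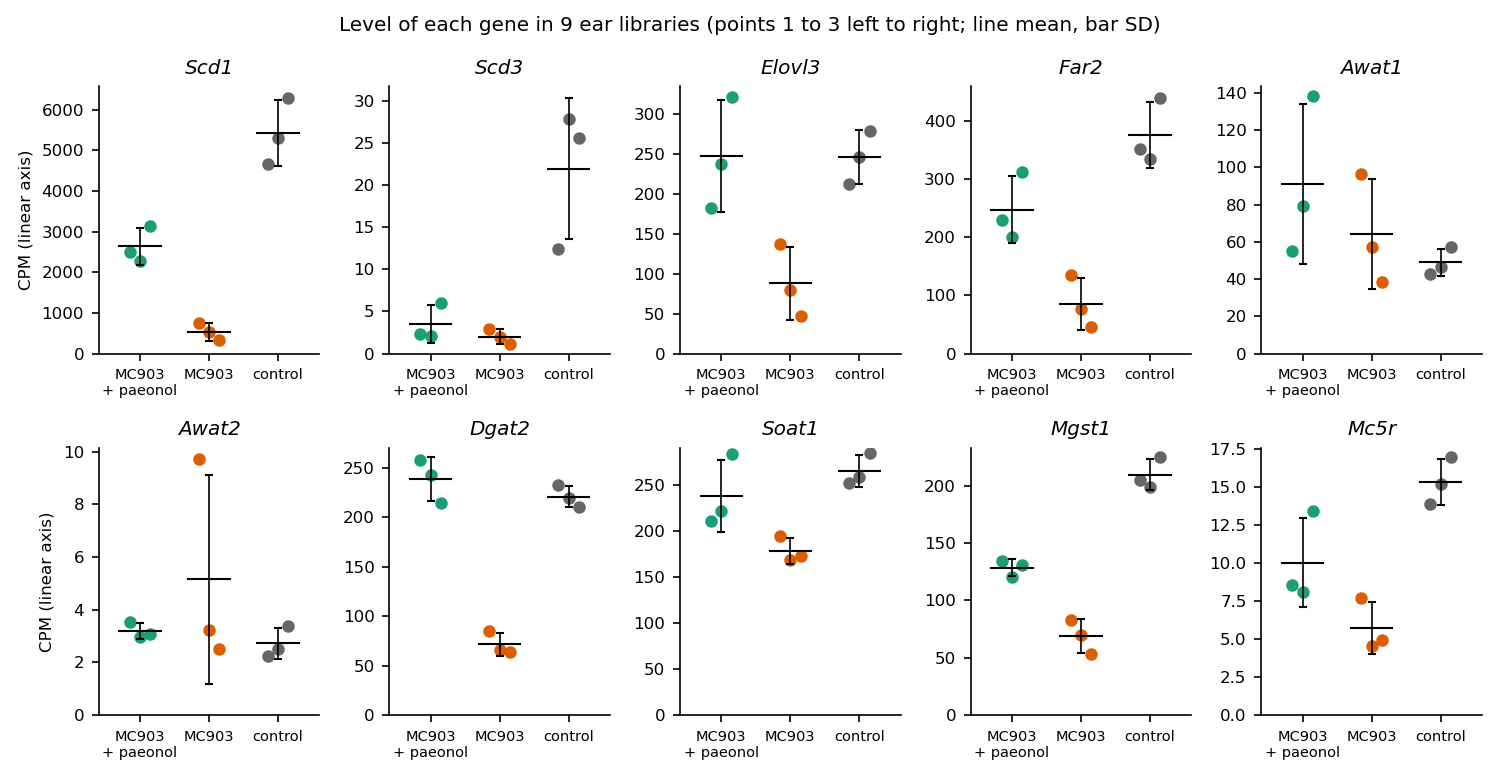
CPM of each gene on linear axes, with 3 points per group for libraries 1 to 3, a line for the mean and a bar for the SD. MC903 libraries lie below control libraries without overlap in 8 panels, and overlap them for Awat1 and Awat2.

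Promoter sequences are shown for 2 members that were not called in MC903 (Awat1, Awat2) and 2 that fell (Far2, Mgst1). RefSeq's table for GRCm38.p6 held a promoter for 6 of the 10 members. Each window runs from 250 bases before to 50 bases after the start, 5′ to 3′ on the gene's strand. Capitals mark matches on either strand to the CCAAT box (CCAAT) and the GC box (GGGCGG).
Awat1 (chrX:100571997-100572296, strand +): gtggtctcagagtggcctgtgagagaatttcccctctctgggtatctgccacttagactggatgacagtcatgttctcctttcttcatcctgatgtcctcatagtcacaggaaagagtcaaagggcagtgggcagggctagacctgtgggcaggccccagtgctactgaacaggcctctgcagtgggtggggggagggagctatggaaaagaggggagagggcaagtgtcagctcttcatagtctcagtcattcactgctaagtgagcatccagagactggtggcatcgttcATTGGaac
Awat2 (chrX:100442668-100442967, strand -): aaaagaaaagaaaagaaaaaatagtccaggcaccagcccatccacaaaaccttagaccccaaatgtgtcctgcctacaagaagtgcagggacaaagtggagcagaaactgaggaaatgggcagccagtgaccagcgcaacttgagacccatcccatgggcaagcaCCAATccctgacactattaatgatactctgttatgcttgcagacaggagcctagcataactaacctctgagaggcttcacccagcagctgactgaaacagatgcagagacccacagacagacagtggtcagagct
Far2 (chr6:148047166-148047465, strand +): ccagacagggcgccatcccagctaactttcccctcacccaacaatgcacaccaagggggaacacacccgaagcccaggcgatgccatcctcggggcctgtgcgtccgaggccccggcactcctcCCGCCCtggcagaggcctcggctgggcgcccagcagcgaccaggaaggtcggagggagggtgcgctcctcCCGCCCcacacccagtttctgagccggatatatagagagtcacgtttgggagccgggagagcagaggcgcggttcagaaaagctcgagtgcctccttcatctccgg
Mgst1 (chr6:138140277-138140576, strand +): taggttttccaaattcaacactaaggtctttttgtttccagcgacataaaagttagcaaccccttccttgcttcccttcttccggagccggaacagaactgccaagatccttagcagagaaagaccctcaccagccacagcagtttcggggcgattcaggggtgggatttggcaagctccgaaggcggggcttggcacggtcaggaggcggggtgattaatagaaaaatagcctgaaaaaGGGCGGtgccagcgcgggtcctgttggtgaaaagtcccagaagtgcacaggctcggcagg
The CCAAT box occurred in Awat1, Awat2 and Soat1 windows, and in 37.4% of all 32851 promoters in the table. The GC box occurred in Far2, Mgst1, Soat1 and a second Awat2 window that is not printed (start at 100412587), against 35.7% of all promoters. No window of the members held a TATA box (TATAAA), an E-box (CACGTG), the nuclear receptor half-site AGGTCA, its direct repeats AGGTCANAGGTCA and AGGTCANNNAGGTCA, or the sterol response element TCACNCCAC. These motifs matched 13.6%, 7.15%, 16.3%, 0.0396%, 0.00609% and 1.24% of all promoters; the repeats contain the half-site. The Awat1 window held 1 CpG, and the Awat2 windows 1 as printed and 4 at the other start. Of the members that fell, Far2 held 21, Soat1 19, Mgst1 13 as printed and 1 at its other start, and Scd3, which had no motif match, 6. The median of all promoters was 7, and the windows of members that fell lay on both sides of it.

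Scd1, the delta-9 desaturase that makes oleic and palmitoleic acid, was the most abundant member per kilobase of exon in each group. It lies on chromosome 19 (GRCm38, 44394455 to 44407879, minus strand). Its level was 753, 518 and 325 CPM in MC903 ears, against 4662, 5301 and 6280 CPM in control ears. The groups did not overlap, and the mean was 9.82% of control, a log2 change of -3.35 ± 0.33 (SE, edgeR adjusted p = 0.000129). With paeonol the level was 2490, 2276 and 3133 CPM. Each of these libraries lay above each MC903 library and below each control library. The log2 change was 2.31 ± 0.31 over MC903 (edgeR adjusted p = 0.00145) and -1.04 ± 0.30 over control (edgeR adjusted p = 0.0368). The first 2 of these Scd1 calls held in each fit that left out 1 library. The last ended without control library 1, 2 or 3 (edgeR adjusted p = 0.0597, 0.0856 and 0.111), without paeonol library 1, 2 or 3 (0.11, 0.108 and 0.0687) and without MC903 library 2 (0.0573).

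Scd3, a second delta-9 desaturase on the same chromosome (44203269 to 44244016, plus strand), is known in mice from the sebaceous and Harderian glands. It was measured at 2.96, 1.90 and 1.18 CPM in MC903 ears, against 12.4, 27.9 and 25.6 CPM in control ears, a log2 change of -3.45 ± 0.57 (edgeR adjusted p = 0.00148). With paeonol it was at 2.31, 2.05 and 6.06 CPM, overlapping the MC903 libraries and below all control libraries. Its log2 change over MC903 was 0.79 with a 95% interval from -0.48 to 2.05 (edgeR adjusted p = 0.338), and over control -2.66 ± 0.54 (edgeR adjusted p = 0.0078). Paeonol library 3 held the highest Scd3 of its group, 2.96 times the lowest. Without it the log2 change was 0.12 over MC903 (edgeR adjusted p = 0.889) and -3.33 over control (edgeR adjusted p = 0.00245). Over the alternatives run, the change ranged from 0.12 to 1.17 over MC903, never called, and from -3.33 to -2.39 over control, called in each.

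Scd3 was also compared with Scd1 inside each library. Scd3 CPM amounted to 0.0929%, 0.0900% and 0.193% of Scd1 CPM with paeonol, to 0.393%, 0.368% and 0.364% in MC903, and to 0.266%, 0.526% and 0.407% in control ears. The paeonol libraries lay below those of both other groups. The log2 ratio differed by -1.67 between paeonol and MC903, by -1.71 between paeonol and control and by -0.04 between MC903 and control. The exact two-sided permutation p was 0.1, 0.1 and 0.9, and 0.1 is the smallest that 3 against 3 libraries can give. Of the 3499 different 50-base words in Scd3 transcripts, 6.57% also occur in transcripts of other genes, and 167 of them in Scd1. With Scd1 so much more abundant, the Scd3 level is uncertain where counting could have split shared reads.

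**Figure D2:**
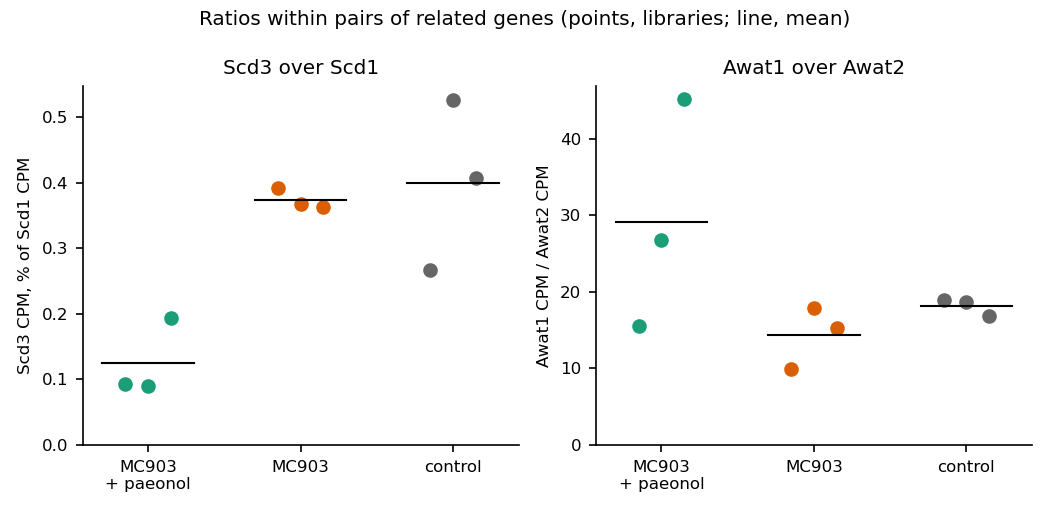
Left, Scd3 CPM as a percent of Scd1 CPM; right, Awat1 CPM divided by Awat2 CPM, per library, with a line for the group mean. The 3 paeonol libraries lie at or below 0.193% for Scd3 over Scd1, and the MC903 libraries at 0.364% or above.

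Elovl3, the elongase that makes very long chain fatty acids in sebaceous glands and hair follicles, stood at 137, 80.0 and 46.6 CPM in MC903 ears. In control ears it had 211, 246 and 279 CPM, with no overlap. The log2 change was -1.48 ± 0.41 (edgeR adjusted p = 0.0232). With paeonol the level was 181, 237 and 321 CPM, above every MC903 library and spanning the control range. That is a log2 change of 1.49 ± 0.41 over MC903 (edgeR adjusted p = 0.0347) and of 0.0068 over control, with a 95% interval from -0.95 to 0.96. The spread of Elovl3 inside groups was wide, and both calls were close to the threshold. The fall in MC903 ended as a call without control library 2 or 3 or MC903 library 2 (edgeR adjusted p = 0.0569, 0.0671 and 0.0733). The rise with paeonol ended without control library 1, 2 or 3 (edgeR adjusted p = 0.0549, 0.0595 and 0.0566), MC903 library 2 (0.104), paeonol library 2 (0.0772) or paeonol library 3 (0.102). The last exon of Elovl3 (chromosome 19, 46131897 to 46135694) overlaps Pitx3 on the opposite strand.

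Far2, the reductase that turns fatty acyl-CoA into the fatty alcohols of wax esters, was at 135, 76.3 and 45.5 CPM in MC903 ears, against 352, 335 and 441 CPM in control ears, a log2 change of -2.14 ± 0.41 (edgeR adjusted p = 0.00453). With paeonol it was at 230, 201 and 312 CPM, between the 2 other groups and overlapping neither. It was higher than in MC903 by 1.54 ± 0.40 on the log2 scale (edgeR adjusted p = 0.0278). Over control the change of -0.60 had a 95% interval from -1.53 to 0.33 and was not called (edgeR adjusted p = 0.307). The rise over MC903 was not called without MC903 library 2 (edgeR adjusted p = 0.0897), paeonol library 1 (0.0663) or paeonol library 3 (0.0845). Far2 (chromosome 6, 148047259 to 148182758) shares exonic sequence with Far2os2 and Ergic2 on the opposite strand. The libraries mark strand, but which strand setting the counting used is not stated.

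Awat1 and Awat2 encode acyl-CoA wax alcohol acyltransferases, enzymes of the DGAT2 family that join fatty alcohols and fatty acids into wax esters. Both lie on the X chromosome, Awat1 at 100572251 to 100578205 and Awat2 at 100402221 to 100442717. Awat1 had 96.7, 57.4 and 38.5 CPM in MC903 ears, against 42.9, 46.7 and 57.1 CPM in control ears. The groups overlapped, and the log2 change of 0.39 had a 95% interval from -0.66 to 1.45 (edgeR adjusted p = 0.516). With paeonol Awat1 was at 54.9, 79.2 and 139 CPM, a log2 change of 0.50 over MC903 (95% interval -0.55 to 1.56) and 0.89 over control (-0.17 to 1.95), neither of them called. In CPM per kilobase of exon, Awat1 was the second of the members in MC903 ears, where its libraries overlapped those of Scd1 and Elovl3, and the sixth in control ears.

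Awat2 was scarce, at 9.73, 3.22 and 2.51 CPM in MC903 ears and 2.26, 2.49 and 3.4 CPM in control ears. The ranges overlapped. Its log2 change was 0.92, with a 95% interval from -0.07 to 1.92 (edgeR adjusted p = 0.119). MC903 library 1 lay above the other libraries of all groups. Without that library the log2 change was 0.076 (edgeR adjusted p = 0.846). Without MC903 library 3 it was 1.25 and the gene was called higher in MC903 (edgeR adjusted p = 0.0263). With paeonol the level was 3.53, 2.95 and 3.07 CPM, a log2 change of -0.69 over MC903 (95% interval -1.68 to 0.30). Without MC903 library 1, the Awat1 change in MC903 over control was -0.028 and the Awat2 change with paeonol over MC903 was 0.15. The Awat1 to Awat2 ratio was 15.6, 26.8 and 45.2 with paeonol, 9.94, 17.9 and 15.4 in MC903, and 19.0, 18.7 and 16.8 in control ears. The ratios of MC903 and of control overlapped with those of the paeonol group (exact permutation p = 0.2 and 0.4). Another gene of this family and chromosome region, Dgat2l6, was named after its values were seen. It rose in MC903 to 54.7 ± 22.3 CPM, against 11.6 ± 5.26 CPM in control ears (SD, n = 3; log2 change 2.24 ± 0.54, edgeR adjusted p = 0.0133).

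**Figure D3:**
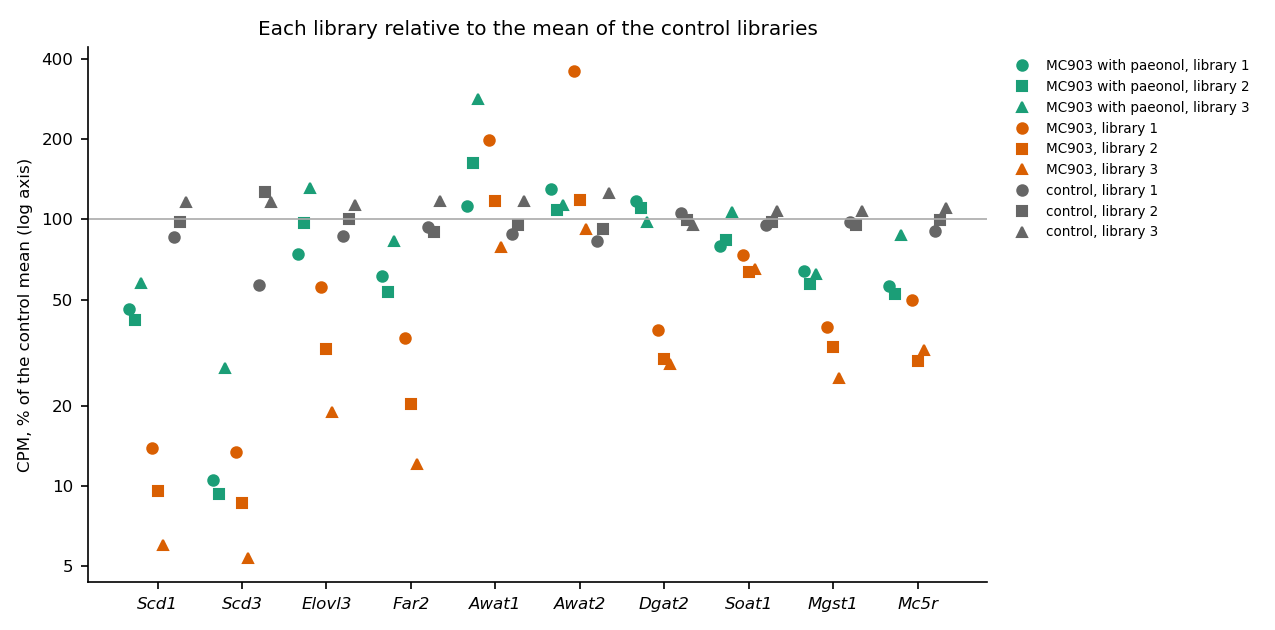
CPM of each library as a percent of the control mean of that gene, on a log axis; circles, squares and triangles are libraries 1, 2 and 3. MC903 libraries of Scd1 lie between 5.995% and 13.9%, those of Awat1 between 78.6% and 198%, and library 1 is the highest MC903 library for all 10 genes.

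Dgat2, the acyltransferase of the last step of triglyceride synthesis, had the smallest p of the members in both comparisons with MC903. It was at 84.9, 66.2 and 63.7 CPM in MC903 ears, against 233, 220 and 211 CPM in control ears. The groups lay far apart, with a log2 change of -1.63 ± 0.11 (edgeR adjusted p = 9.71e-07). With paeonol it was at 259, 243 and 215 CPM, overlapping the control libraries and above all MC903 libraries. The log2 change over MC903 was 1.74 ± 0.11 (edgeR adjusted p = 2.99e-06). Over control it was 0.11, with a 95% interval from -0.12 to 0.34, and -0.050 when libraries were scaled by their totals alone. Dgat2 lies on chromosome 7 (99153658 to 99182719) and is also expressed by fat cells.

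Soat1, which esterifies cholesterol, fell least of the called members. It was at 195, 168 and 173 CPM in MC903 ears, against 252, 259 and 284 CPM in control ears, a log2 change of -0.57 ± 0.11 (edgeR adjusted p = 0.00111). With paeonol the level was 210, 221 and 283 CPM, a log2 change of 0.42 ± 0.11 over MC903 (edgeR adjusted p = 0.0129). That call ended without MC903 library 2 or 3 (edgeR adjusted p = 0.0541 and 0.05). Over control the change was -0.15 (95% interval -0.39 to 0.08), and without paeonol library 3 it was called lower (-0.30, edgeR adjusted p = 0.0232). Its relative Soat2, best known from liver and intestine, moved the other way: 8.26 ± 0.235 CPM in MC903, against 0.878 ± 0.12 CPM in control ears (SD, n = 3; log2 change 3.23 ± 0.20, edgeR adjusted p = 4.92e-07).

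Mgst1, a membrane-bound glutathione transferase used as a sebocyte marker, was at 83.1, 69.7 and 53.2 CPM in MC903 ears, against 205, 199 and 225 CPM in control ears, a log2 change of -1.61 ± 0.14 (edgeR adjusted p = 8.89e-06). With paeonol it was at 134, 120 and 131 CPM, a narrow group between the other two without overlap. It was 0.91 ± 0.13 above MC903 (edgeR adjusted p = 0.000762) and -0.71 ± 0.13 relative to control (edgeR adjusted p = 0.00316), both on the log2 scale. These Mgst1 calls held in every fit that left out 1 library.

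Mc5r, the melanocortin receptor through which peptides such as alpha-MSH act on sebocytes, was at 7.65, 4.51 and 4.94 CPM in MC903 ears, against 13.9, 15.1 and 16.9 CPM in control ears, a log2 change of -1.43 ± 0.24 (edgeR adjusted p = 0.000458). With paeonol it was at 8.57, 8.06 and 13.4 CPM, above all MC903 and below all control libraries. The log2 change was 0.81 ± 0.23 over MC903 (edgeR adjusted p = 0.0229) and -0.61 over control (95% interval -1.12 to -0.11, edgeR adjusted p = 0.0661, not called). The call over MC903 ended without MC903 library 2 or 3 (edgeR adjusted p = 0.087 and 0.088) or paeonol library 3 (0.0858). The difference from control became a call without MC903 library 1 (edgeR adjusted p = 0.0345) or paeonol library 3 (0.0141). It was also a call with scaling by library totals (edgeR adjusted p = 0.0186), in the fit of 2 groups (0.0438) and with counts divided by 4 (0.0467). DESeq2 called it too (DESeq2 adjusted p = 0.0352). Of the other melanocortin genes, 6 of 10 listed were tested. In MC903 over control 1 fell and 5 were not called, with paeonol over MC903 1 rose and 5 were not called, and with paeonol over control 1 was higher, 1 lower and 4 not called. The shares called were 16.7%, 16.7% and 33.3%, beside 46.8%, 29.7% and 30.9% of all genes. Mc1r, Mrap, Agrp, Mc2r and Mrap2 were scarce, with mean log2 CPM of 0.44, 0.33, 0.34, -2.425 and -3.158. The low shares therefore do not show that these genes were unchanged. Agrp, an antagonist of melanocortin receptors, fell in MC903 (0.547 ± 0.109 CPM, against 2.36 ± 0.664 CPM in control ears; log2 change -2.10 ± 0.35) and rose with paeonol over MC903 (1.49 ± 0.34). Relative to control, the paeonol group had higher Mc1r (0.98 ± 0.32), the pigment cell receptor, and lower Mrap (-1.21 ± 0.37), a receptor accessory protein.

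**Figure D4:**
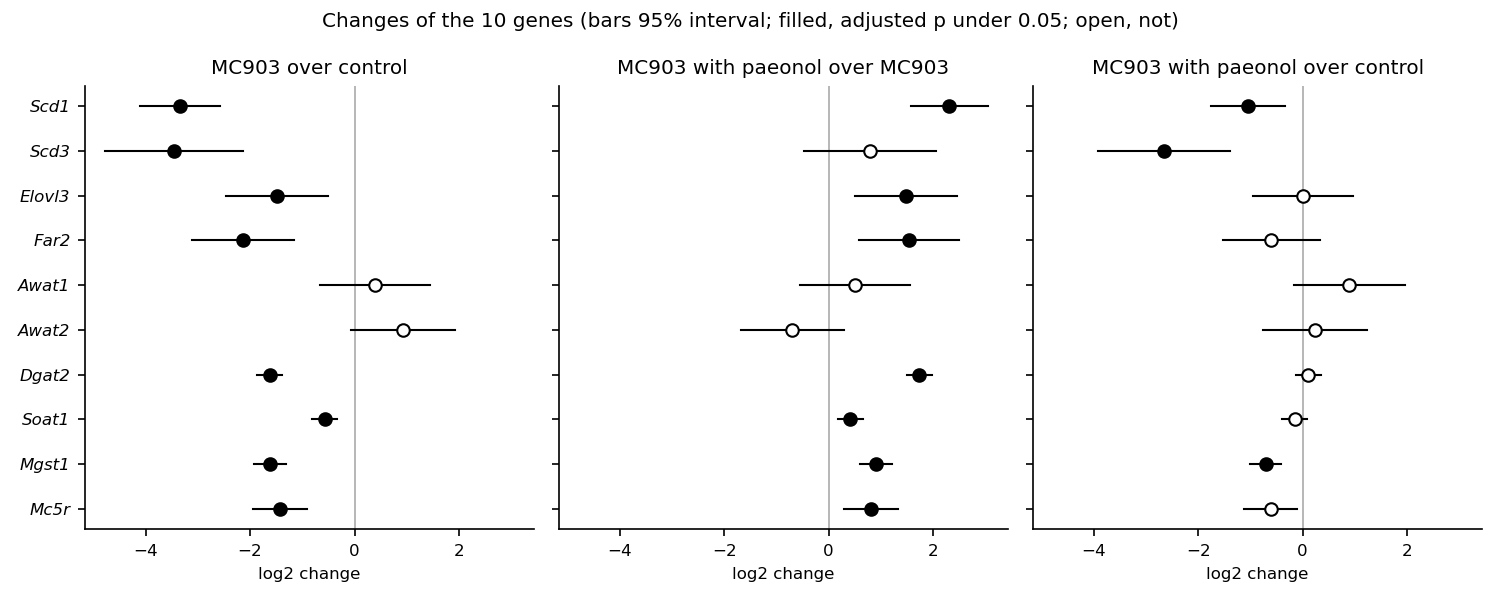
Log2 change of each gene in the 3 comparisons, with 95% intervals; filled points passed the adjusted threshold. Intervals of Awat1 and Awat2 span 0 in each panel, and that of Dgat2 lies between 1.5 and 1.98 in MC903 with paeonol over MC903.

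Across the members, levels per kilobase of exon in control ears ran from Scd1 (1107 ± 167 CPM per kilobase, SD, n = 3) through Elovl3 (124 ± 17.0), Mgst1 (104 ± 6.68), Dgat2 (71.7 ± 3.58), Far2 (51.4 ± 7.75), Awat1 (35.2 ± 5.32), Soat1 (27.1 ± 1.76), Scd3 (6.18 ± 2.35) and Mc5r (3.92 ± 0.393) to Awat2 (1.28 ± 0.283). Of neighbours in this order, only Elovl3 with Mgst1 and Scd3 with Mc5r had overlapping libraries. In MC903 ears the order was Scd1, Awat1, Elovl3, Mgst1, Dgat2, Soat1, Far2, Awat2, Mc5r and Scd3, and the first 5 formed a chain of overlapping neighbours. In the paeonol group Scd1 and Elovl3 again came first and second. The 10 genes together took 0.329% to 0.431% of all counts with paeonol, 0.0719% to 0.142% in MC903 and 0.649% to 0.846% in control libraries. Scd1 supplied 67.1% to 69.7% of those counts with paeonol, 43.1% to 50.0% in MC903 and 77.9% to 80.3% in control libraries.

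Most members also varied together between libraries of 1 group. MC903 library 1 was the highest of its group for all 10 members, and MC903 library 3 the lowest for 8. Over all genes tested, library 1 was the highest MC903 library for 35% and library 3 the lowest for 33.9%. Paeonol library 3 was the highest of its group for 7 members, and control library 3 for 8, beside 35.3% and 31.4% of all genes. Mgst1, Awat2 and Dgat2 were instead highest in paeonol library 1. Dgat2 was lowest in library 3 of both the paeonol and the control group. The ratio of the highest to the lowest library had a median of 2.41 over the members in MC903, 1.46 with paeonol and 1.32 in control ears, while over all genes that averaged 2 or more on the log2 CPM scale it was 1.16, 1.16 and 1.15. Over the 9 libraries, Pearson's r of each member's log2 CPM with the mean of the other members was 0.98 for Far2, 0.96 for Elovl3, 0.94 for Mc5r, 0.93 for Scd1 and Soat1, 0.90 for Mgst1, 0.81 for Dgat2, 0.75 for Scd3, 0.22 for Awat1 and -0.16 for Awat2. These values describe 9 libraries in 3 groups and carry the group differences.

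The 5 other genes most like the mean of the members over the 9 libraries were Cyp3a57 (r = 0.996), Cers4 (0.990), Aadacl3 (0.987), Krt79 (0.983) and Cidea (0.981). Of 12338 genes compared, 1.67% reached r of 0.9. Cers4, a ceramide synthase, averaged 340 ± 65.6 CPM with paeonol, 139 ± 61.9 CPM in MC903 and 450 ± 48.1 CPM in control ears (SD, n = 3). Krt79, a keratin of the sebaceous duct, averaged 381 ± 107, 162 ± 79.8 and 417 ± 36.3 CPM in the same order of groups.

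Related lipid genes were followed as lists. Among 25 tested genes of fatty acid synthesis, elongation and desaturation, 15 fell and 1 rose in MC903 over control. The shares of all genes were 23.8% and 23%. The median log2 change of the list was -0.68. Fa2h, which hydroxylates fatty acids, fell to 109 ± 62.8 CPM, against 889 ± 121 CPM in control ears (log2 change -3.03 ± 0.45). The elongase Elovl5 fell by 2.36 ± 0.12 on the log2 scale and the elongase Elovl7 rose by 1.16 ± 0.19. With paeonol over MC903, 14 of the 25 rose and 1 fell, beside 15.3% and 14.3% of all genes, with a median of 0.52. Fa2h rose by 2.44 ± 0.44, Elovl5 by 1.24 ± 0.11, and the acyl-CoA synthetase Acsl3 fell by 0.46 ± 0.12. Relative to control, the paeonol group had 9 lower, such as Elovl5 (-1.12 ± 0.11) and Acacb (-1.07 ± 0.18), and 2 higher, Elovl7 (1.74 ± 0.20) and Elovl1 (0.84 ± 0.12). Of all genes, 14.5% were lower and 16.3% higher.

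Acyltransferases, wax and lipid droplet genes went both ways. Of 21 tested, 6 rose and 10 fell in MC903 over control, beside 23% and 23.8% of all genes, with a median of -0.28. Besides Soat2, the fatty acid binding protein gene Fabp5 rose, to 4452 ± 437 CPM, against 483 ± 61.6 CPM in control ears (log2 change 3.20 ± 0.20). The monoglyceride lipase Mgll (-2.14 ± 0.32) and the lipid droplet gene Cidea (-1.80 ± 0.28) fell. Far1, the second fatty acyl-CoA reductase, was among the genes that rose (0.46 ± 0.14); it was named after its values were seen. With paeonol over MC903, 6 rose and 4 fell, beside 15.3% and 14.3% of all genes, with a median of 0.15. Mgll (1.80 ± 0.31) and Cidea (1.33 ± 0.28) led upward and Soat2 (-2.38 ± 0.19) and Fabp5 (-1.37 ± 0.19) downward. Relative to control, 5 were higher with paeonol, among them Fabp5 (1.83 ± 0.19) and Soat2 (0.85 ± 0.19), and 6 lower, among them Cidec (-1.23 ± 0.17) and Lpin1 (-0.78 ± 0.09). Of all genes, 16.3% were higher and 14.5% lower.

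Regulators and identity genes of the gland formed a further list. Of 15 tested, 9 fell and 1 rose in MC903 over control, with a median of -0.89. Gata6, a transcription factor of the upper follicle and sebaceous duct, fell by 2.55 ± 0.28 and the steroid dehydrogenase Hsd3b6 by 2.32 ± 0.46 on the log2 scale, while Srebf2, the regulator of sterol synthesis, rose by 0.32 ± 0.07. Gata6 was scarce, at 0.67 ± 0.17 CPM in MC903 and 3.91 ± 0.88 CPM in control ears (SD, n = 3). With paeonol over MC903, 12 rose and none fell, with a median of 0.75, including Hsd3b6 (2.41 ± 0.46) and the proton pump subunit Atp6v1c2 (1.66 ± 0.19). Relative to control, 3 were higher with paeonol, such as Acox2 (1.38 ± 0.36) and Prdm1 (0.84 ± 0.19), and 6 lower, such as Gata6 (-1.18 ± 0.26) and Lrig1 (-0.74 ± 0.07). Among the 6 were the lipogenic regulators Pparg (-0.53 ± 0.12) and Srebf1 (-0.53 ± 0.09), named after their values were seen. Both had fallen in MC903 over control (-0.89 ± 0.12 and -1.16 ± 0.09). With paeonol over MC903 both were called higher (0.36 ± 0.12 and 0.63 ± 0.09). Over all genes, 46.8%, 29.7% and 30.9% were called in either direction in MC903 over control, paeonol over MC903 and paeonol over control. By direction, 23.8% fell and 23% rose in MC903 over control. With paeonol, 15.3% were higher and 14.3% lower than in MC903, and 16.3% higher and 14.5% lower than in control.

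**Figure D5:**
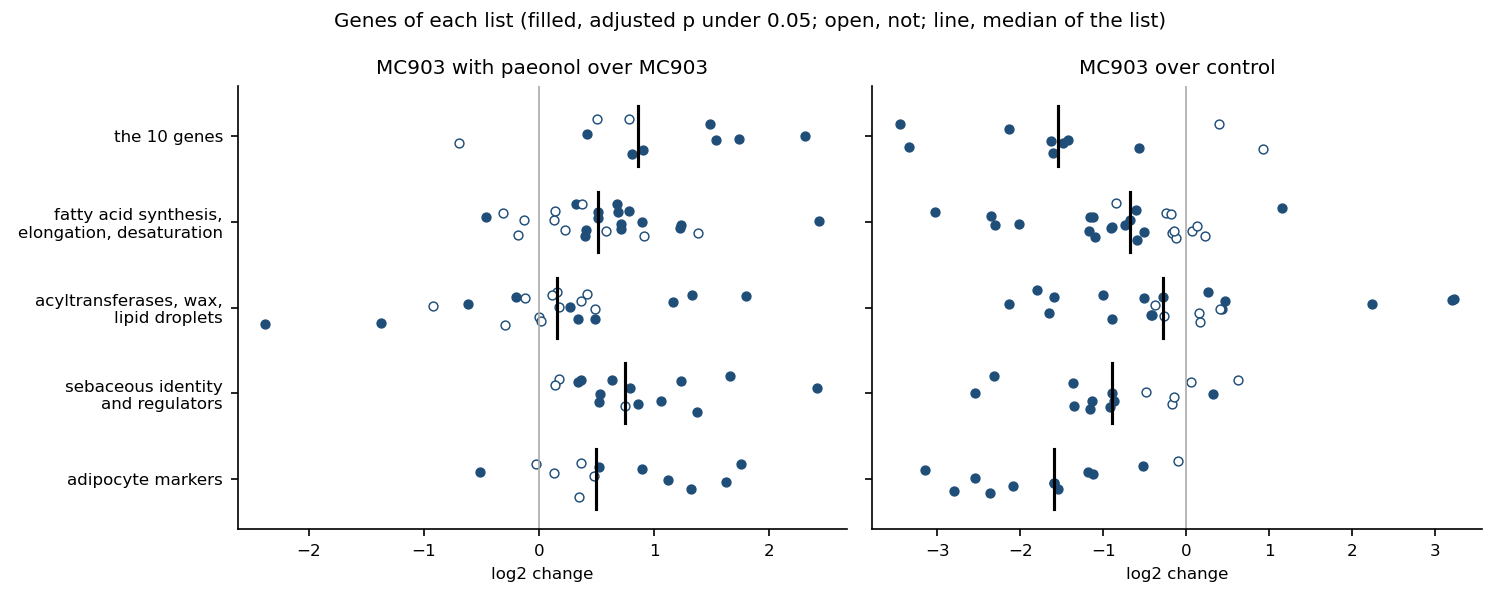
Log2 changes of the genes of 5 lists in 2 comparisons; filled points passed the adjusted threshold, and the line is the median of the list. The medians of the 10 genes are 0.86 and -1.55, and those of the adipocyte markers 0.50 and -1.60.

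Markers of other cells in the ear were followed in the same libraries, and their lists differed in direction. Epidermal keratins were abundant in all libraries, with Krt5 between 5472 and 7662 CPM. Of 12 adipocyte markers, 11 fell in MC903 over control, beside 23.8% of all genes, with a median of -1.60. Their summed level was 621 to 666 CPM with paeonol, 464 to 532 CPM in MC903 and 964 to 1197 CPM in control libraries. With paeonol over MC903, 6 of the 12 rose and 1 fell, beside 15.3% and 14.3% of all genes. Relative to control, 11 of the 12 were still lower with paeonol and 1 was higher, beside 14.5% and 16.3% of all genes. Summed hair follicle markers were at 807 to 956 CPM with paeonol, 552 to 658 CPM in MC903 and 1578 to 2048 CPM in control libraries; their most abundant gene was Krt15. Of the 13 tested, 3 rose, 3 fell and 7 were not called in MC903 over control, beside 23% and 23.8% of all genes called higher and lower. With paeonol over MC903, 3 rose and 1 fell, beside 15.3% and 14.3% of all genes. Summed skeletal muscle markers were at 2737 to 3503, 2291 to 2884 and 5001 to 7476 CPM in the same order. Summed macrophage markers were at 529 to 859, 1745 to 1963 and 981 to 1072 CPM, and stressed keratinocyte markers at 5353 to 9577, 20930 to 22810 and 662 to 1600 CPM. In MC903 over control all 10 macrophage markers and 5 of 7 stressed keratinocyte markers rose, beside 23% of all genes. Their medians were 1.10 and 4.46. With paeonol all 10 macrophage markers and 4 of 7 stressed keratinocyte markers were lower than in MC903, beside 14.3% of all genes. Of 12 skeletal muscle markers, 11 fell and none rose in MC903 over control, beside 23.8% and 23% of all genes. With paeonol, 3 of these 12 were higher and 1 lower than in MC903, beside 15.3% and 14.3%. All 12 were lower with paeonol than in control, beside 14.5%. Basal keratinocyte markers summed to 19390 to 20830, 20570 to 21680 and 13720 to 15010 CPM, and suprabasal markers to 29500 to 33080, 6777 to 14610 and 8400 to 12830 CPM. The basal sum did not follow the single genes in MC903 over control. In MC903 over control 3 of 8 basal markers rose and 3 fell, with a median of -0.01. The most abundant, Krt14, averaged 13640 ± 470 CPM in MC903 and 5527 ± 267 CPM in control ears (SD, n = 3). Of 8 suprabasal markers, 2 rose and 3 fell, with a median of -0.31. With paeonol 6 of these 8 were higher and none lower than in MC903, beside 15.3% and 14.3% of all genes, with a median of 1.22. Relative to control 6 were also higher and none lower, beside 16.3% and 14.5% of all genes, with a median of 0.81. No matched marker was at 0 in all libraries, and the part of these cells in the changes of the sebaceous genes was not tested.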

How the data were processed

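Messenger RNA of mouse ears was analysed in 9 libraries, 3 per group by the treatment labels. The values deposited by the authors are whole numbers per gene, taken here as estimated counts, with library totals of 54264605 to 57745225. Among low values multiples of 4 are in excess: 4 occurs 1.9 to 2.23 times as often as 3 and 5 do on average. The submitters' processing notes name GRCm38, StringTie 1.3.4d, HISAT2 2.0.4 and cutadapt, and no source used here gives the annotation or the strand setting. On counts divided by 4, pairs of libraries in 1 group had a chi-square of 7.03 to 15.8 for each degree of freedom, so no library was taken as a duplicate.

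All 9 libraries entered 1 model in edgeR 4.0.16 (R 4.3.3, limma 3.58.1) with filterByExpr (minimum count 10), TMM scaling and a robust quasi-likelihood test, two-sided, with adjustment over 21925 genes. The standard error was taken from the change and its F value, and 95% intervals from it. CPM are counts scaled to 1000000 per TMM-scaled library. Positions and exon lengths are from GENCODE M21.

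Members and lists were chosen with earlier results of these data known. Named genes are the 10 members, the 2 largest called changes per direction in each of 4 lipid lists (mean log2 CPM of at least 0), and the 5 genes most correlated with the members' mean; other named genes were chosen after their values were seen. Of 143 other listed genes, 141 matched a symbol and 136 were tested. Alternatives were DESeq2 1.42.0, other scalings and filters, 2-group fits, a 2-fold minimum, counts divided by 4, the replicate number as a block, and each library left out.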

Additional observations from a re-analysis of the deposited data

How the results depend on the processing

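With 1 library left out at a time, 7 to 9 members were called in MC903 over control, 3 to 7 in MC903 with paeonol over MC903 and 2 to 4 in MC903 with paeonol over control, against 8, 7 and 3 with all libraries. The 3 came without MC903 library 2, and 4 without paeonol library 3. A 2-fold minimum also left 4 of the 7, since Soat1, Mgst1 and Mc5r changed by less. For MC903 with paeonol over control, scaling by library totals and the fit of 2 groups each gave 5 members in place of 3; the cause was not tested. Under scaling by library totals, the median over all genes became -0.21 in MC903 over control and to -0.20 in MC903 with paeonol over control, and it turned the direction of 2 uncalled values in MC903 with paeonol over control, Dgat2 to -0.050 and Elovl3 to -0.16. Elovl3 in that comparison was also at -0.09 without control library 1 and ranged from -0.23 without paeonol library 3 to 0.20 without paeonol library 1. Awat1 in MC903 over control ranged from -0.028 without MC903 library 1 to 0.66 without MC903 library 3, and Awat2 with paeonol over MC903 from -1.02 without MC903 library 3 to 0.15 without MC903 library 1.

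Without the expression filter the paeonol over MC903 count was 5, and Scd1 in MC903 with paeonol over control was not called (edgeR adjusted p = 0.0775). DESeq2 gave 8, 7 and 4 members, and counts divided by 4 gave 8, 7 and 4. The Scd3 to Scd1 log2 ratio difference ranged from -2.03 to -1.48 for paeonol over MC903, from -2.07 to -1.49 for paeonol over control and from -0.31 to 0.18 for MC903 over control with 1 library left out. That of Awat1 to Awat2 ranged from 0.55 to 1.32, from 0.17 to 0.94 and from -0.56 to -0.13.

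Libraries with the same replicate number did not deviate together (correlations of -0.011 to 0.04 over genes, and 3 of 9 libraries correlated best with their own number), so the numbers were not taken as pairs. With the replicate block, 7, 5 and 2 members were called. Awat2 and Scd3 had 138 to 497 and 65 to 151 estimated counts in MC903 libraries, and counts divided by 4 changed no call of either.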

Other observations

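Other delta-9 desaturase genes were also measured. Scd2, widely expressed and known from brain, averaged 338 ± 13.7 CPM with paeonol, 270 ± 46.4 CPM in MC903 and 303 ± 12.6 CPM in control ears (SD, n = 3). Its log2 change was -0.17 in MC903 over control (95% interval -0.39 to 0.05) and 0.32 ± 0.10 with paeonol over MC903, the second of them called by edgeR. Scd4, known from mouse heart, was scarce, at 0.615 ± 0.0585 CPM with paeonol, 0.765 ± 0.246 CPM in MC903 and 1.38 ± 0.202 CPM in control ears, and was called lower with paeonol than in control (-1.16 ± 0.34). Both genes were picked after their values were seen.

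Acaca and Acacb, which encode the enzymes that make malonyl-CoA, are also in the list. Acacb averaged 83.1 ± 11.7 CPM with paeonol, 35.5 ± 9.39 CPM in MC903 and 175 ± 13.6 CPM in control ears. Acaca averaged 94.1 ± 10.2, 86.1 ± 8.73 and 82.0 ± 2.53 CPM in the same order, and was not called in any of the 3 comparisons.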
